A study of Mus musculus with 9 samples.

Results

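Basement membranes are thin sheets of extracellular matrix that underlie epithelia and endothelia and wrap muscle, fat and nerve cells. Their genes were followed here in NIH/3T3, a fibroblast line derived from mouse embryos, after UVA irradiation with and without alpha-arbutin, a glycosylated hydroquinone. The 10 genes were chosen by symbol from the 56691 genes of the expression table, and each matched 1 row. They are Col4a1, Col4a2 and Col4a5 of collagen IV, Lama4, Lama5, Lamb1 and Lamc1 of the laminins, the nidogens Nid1 and Nid2, and the perlecan gene Hspg2. RNA sequencing covered 9 libraries of wild-type cells of this line: 3 of co-treated cells, which received alpha-arbutin and a UVA dose of 10 J/cm2, 3 of cells that received the same UVA dose alone, whose titles read MOCK, and 3 of control cells with no treatment named. The sources used here give no alpha-arbutin dose, order of the treatments or time of harvest. They do not state whether the libraries come from separate cultures. The p-values therefore set differences against the spread between these libraries, which may not be that between separate cultures. The study's stated interest is whether alpha-arbutin counters photodamage, with collagen synthesis among the named endpoints.

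Laminins are cross-shaped trimers of an alpha, a beta and a gamma chain that polymerise at the cell surface and bind integrins and dystroglycan; the alpha chain is needed for the trimer to leave the cell. Collagen IV chains form heterotrimers, most widely of the α1 and α2 chains, which crosslink into a network. Nidogens and the heparan sulphate proteoglycan perlecan bridge the laminin and collagen IV networks. Fibroblasts are known as a source of nidogen and of other basement membrane proteins that are deposited under neighbouring epithelium.

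Col4a1 and Col4a2 lie head to head. In the table's mm39 annotation Col4a1 (ENSMUSG00000031502) spans chromosome 8, 11248423 to 11362826 on the minus strand, and Col4a2 (ENSMUSG00000031503) spans 11362805 to 11499287 on the plus strand, so the genes overlap by 22 bases. Their promoters are shown because both genes moved the same way, and those of Nid1 (chromosome 13, 13612136 to 13686854) and Hspg2 (chromosome 4, 137196080 to 137297941) because those genes moved the other way. Each sequence is RefSeq's for GRCm38.p6, from 250 bases before to 50 bases after the annotated start, 5′ to 3′ on the gene's strand. Capitals mark matches on either strand to the CCAAT box (CCAAT) and the GC box (GGGCGG); no matches to different motifs overlapped.
Col4a1, chr8:11312777-11313076, minus strand: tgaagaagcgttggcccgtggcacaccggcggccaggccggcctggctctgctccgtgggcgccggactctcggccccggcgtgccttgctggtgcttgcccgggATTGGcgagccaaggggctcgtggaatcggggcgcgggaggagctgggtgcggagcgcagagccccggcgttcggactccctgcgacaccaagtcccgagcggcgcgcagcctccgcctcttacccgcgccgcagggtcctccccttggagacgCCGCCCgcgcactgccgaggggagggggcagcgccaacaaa
Col4a2, chr8:11312555-11312854, plus strand: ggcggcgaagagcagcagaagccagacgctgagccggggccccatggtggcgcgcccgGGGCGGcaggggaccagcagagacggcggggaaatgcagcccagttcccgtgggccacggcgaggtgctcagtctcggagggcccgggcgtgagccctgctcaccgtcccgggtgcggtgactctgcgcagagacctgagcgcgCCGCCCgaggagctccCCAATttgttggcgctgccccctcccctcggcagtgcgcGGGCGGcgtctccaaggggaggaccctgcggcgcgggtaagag
Nid1, chr13:13437352-13437651, plus strand: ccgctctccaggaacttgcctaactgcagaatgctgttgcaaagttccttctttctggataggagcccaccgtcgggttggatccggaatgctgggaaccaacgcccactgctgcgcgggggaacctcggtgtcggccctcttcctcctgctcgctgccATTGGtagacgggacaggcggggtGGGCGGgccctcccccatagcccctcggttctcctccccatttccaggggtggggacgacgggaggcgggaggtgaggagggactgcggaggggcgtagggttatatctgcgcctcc
Hspg2, chr4:137468553-137468852, plus strand: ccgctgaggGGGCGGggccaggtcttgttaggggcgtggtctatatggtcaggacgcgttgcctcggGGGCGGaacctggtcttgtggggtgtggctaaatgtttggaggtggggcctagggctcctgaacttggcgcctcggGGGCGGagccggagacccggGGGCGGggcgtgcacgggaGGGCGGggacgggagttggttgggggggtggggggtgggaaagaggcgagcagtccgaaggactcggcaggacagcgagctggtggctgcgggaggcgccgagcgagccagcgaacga
The Col4a1 and Col4a2 windows share 78 bases, and 1 GC box match lies in both. Of the 10 genes 7 had a promoter in the RefSeq table, all but Lama4, Lamc1 and Nid2. A CCAAT box match occurred in Col4a1, Col4a2, Col4a5, Lamb1 and Nid1, but not in Hspg2 or Lama5. All 7 windows held a GC box match, with 5 in Hspg2. None held the AP-1 motif TGANTCA or TATAAA. Among all 32851 windows of this length, 37.4% held a CCAAT box match, 35.7% a GC box match, 7.81% the AP-1 motif and 13.6% TATAAA. These shares were not matched for the content of G and C, which ranged from 52.7% in the Col4a5 window to 74% in the Col4a1 window. These matches are descriptions of sequence, not binding sites, and a link between them and the direction of change was not tested.

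Libraries held 16298348 to 20862894 counts. Fibroblast markers summed to 2310 to 2428 FPKM in co-treated, 2411 to 2522 FPKM in UVA and 2623 to 2633 FPKM in control libraries. Most of the sum came from S100a4 and Vim, at 1272 and 576 FPKM on average in control cells. Fap and Lum averaged at most 0.07 FPKM in any group. By the edgeR test described below, 6 of 8 tested fibroblast markers were lower and 1 higher in UVA than in control cells. Over all tested genes 14.6% were lower and 14.7% higher. FPKM is the count scaled to exonic length in kilobases and to the library's total, so levels can be compared between genes. The endothelial, epithelial, Schwann cell and muscle lists, tissues that make basement membrane, each summed to at most 1.54 FPKM in any library. Cldn5, Epcam, Krt5, Sox10, Foxd3 and Myod1 were at 0 in all of them. The 6 immune markers summed to 2.95 to 4.29 FPKM in co-treated, 3.33 to 4.94 FPKM in UVA and 2.44 to 2.84 FPKM in control libraries, mostly from the lysosomal gene Cd68, while Cd3e was at 0 in all libraries. Their part in the results was not tested. In bulk RNA, fewer cells making a transcript and less transcript per cell cannot be told apart.

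Of the 10 genes 7 were abundant, and Lama4, Lama5 and Nid2 were low or near 0. Per exonic length, the nidogen gene Nid1 was the most abundant of the 10 in every library. In control cells it stood at 175 ± 3.24 FPKM (SD, n = 3). Hspg2 followed at 55.3 ± 1.47 FPKM, Col4a1 at 54.3 ± 2.71, Col4a2 at 50.3 ± 2.51 and Lamb1 at 48.1 ± 0.639. The control libraries of Hspg2 overlapped with those of Col4a1, those of Col4a1 with Col4a2, and those of Col4a2 with Lamb1. Lamc1, the gamma chain gene, at 42.0 ± 0.204 FPKM and Col4a5 at 35.5 ± 1.41 FPKM were separate from their neighbours.

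Lama4 and Lama5 were far lower. Lama4 encodes the alpha chain typical of vessel walls, fat and muscle, and had 142, 121 and 175 counts in co-treated libraries, 147, 104 and 163 in UVA libraries, and 194, 227 and 248 in control libraries. Lama5, the alpha chain of most adult epithelial basement membranes, had 31, 43 and 35 counts in co-treated, 32, 29 and 45 in UVA, and 41, 41 and 66 in control libraries. The other 3 alpha chain genes, named to complete the family after their values were seen, were lower still, with at most 0.06 FPKM per group on average: Lama2 had 51 counts over the control libraries, Lama3 had 17 and Lama1 had 2 or fewer in any group. The FPKM of all 5 alpha chains together was 2.49% ± 0.246 of that of Lamc1 in co-treated, 2.45% ± 0.212 in UVA and 3.12% ± 0.0939 in control libraries (SD, n = 3).

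Nid2, the second nidogen, was at the limit of detection. It had 0 counts in all 3 co-treated libraries, which allows at most 0.0354 FPKM in the shallowest of them (3 counts in that library, counting error only). It had 0, 0 and 2 counts in UVA libraries and 0, 0 and 1 in control libraries, and it was not tested. A gene on the other strand, Rtraf, overlaps it by 437 bases.

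**Figure D1:**
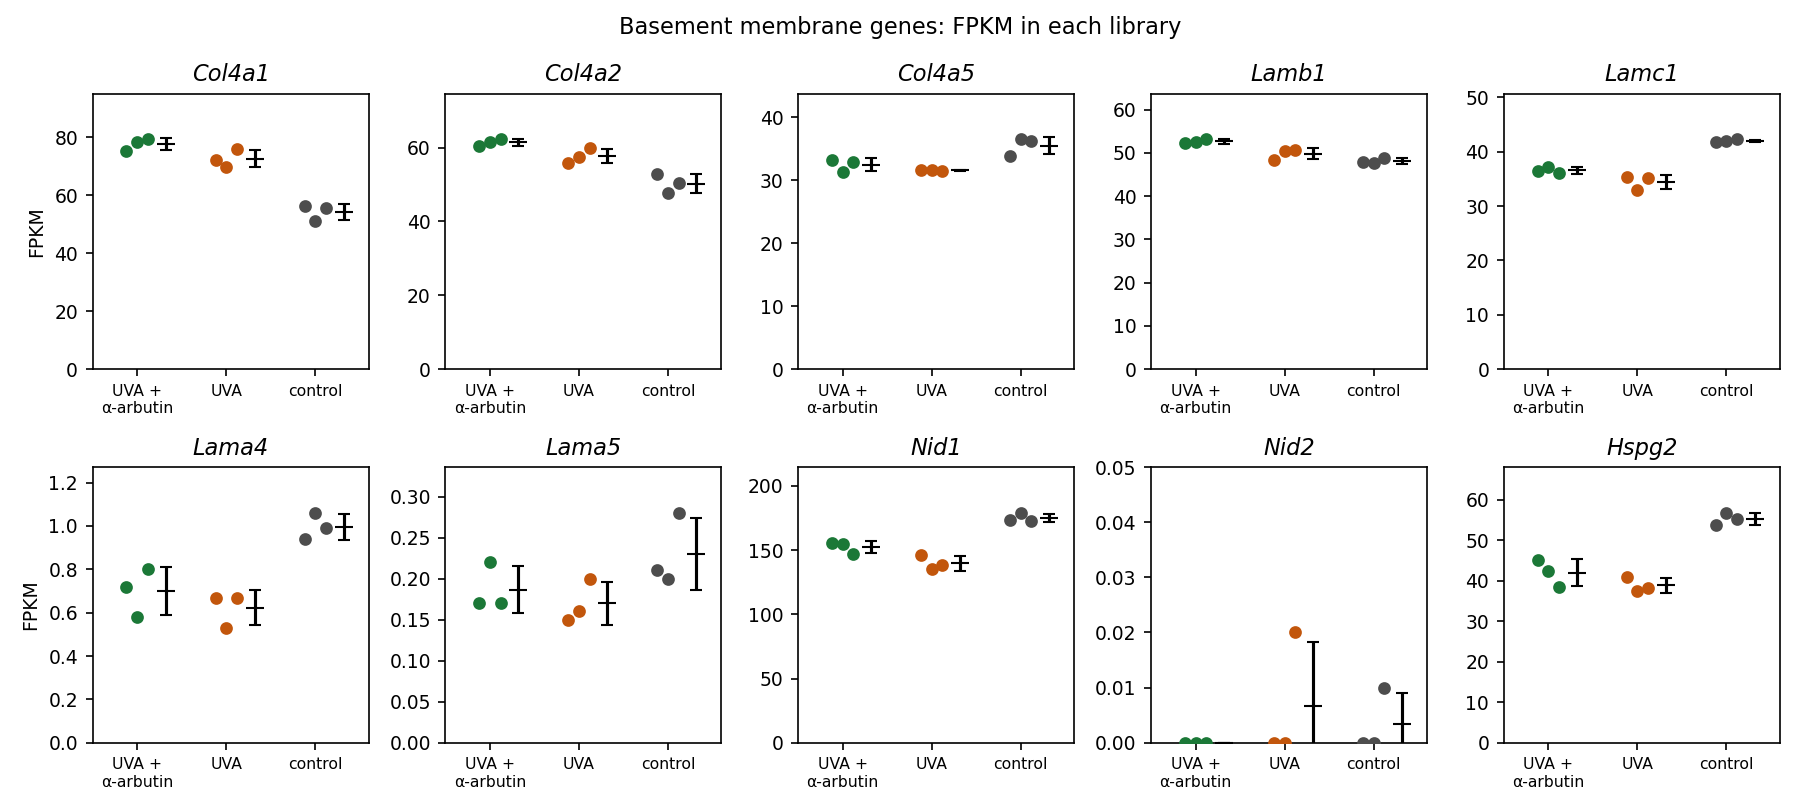
Deposited FPKM of the 10 basement membrane genes in each library (points), with the group mean and SD beside them (n = 3), on linear axes that start at 0 and differ between panels. Col4a1 and Col4a2 lie higher in both irradiated groups than in control, whereas Col4a5, Lamc1, Lama4, Nid1 and Hspg2 lie lower.

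In UVA cells Col4a1 and Col4a2 were higher than in control cells. Col4a5, also of collagen IV, Lama4, Lamc1 and the linkers Nid1 and Hspg2 were lower. Of the 9 genes that passed the filter on low counts, 2 rose and 5 fell in UVA against control cells. Over all 14151 tested genes 14.7% rose and 14.6% fell, and 29.3% were called in all. Fold changes were tested with edgeR's quasi-likelihood F-test, with Benjamini-Hochberg adjustment over all tested genes and a call at an adjusted p below 0.05. The median log2 fold change was -0.27 over the 9 genes and 0.003 over all tested genes. The 2 groups of libraries did not overlap in any of the 9 genes in CPM, the count per library size scaled by edgeR's TMM, with 3 higher and 6 lower, where 42.0% of all tested genes were apart, 21.1% higher and 20.9% lower.

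Col4a1 rose most. It stood at 72.12, 69.83 and 75.77 FPKM in UVA libraries, against 56.17, 51.15 and 55.45 FPKM in control libraries. Every UVA library was above every control library. The log2 fold change was 0.44 ± 0.04 (SE; 95% interval 0.35 to 0.52; adjusted p = 2.40e-09), or 1.35-fold.

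Col4a2, its partner chain, had 55.96, 57.57 and 59.84 FPKM in UVA libraries and 52.76, 47.74 and 50.34 FPKM in control libraries. The groups were apart but closer than for Col4a1, with the lowest UVA library at 55.96 against the highest control library at 52.76. Its log2 fold change was 0.22 ± 0.04 (95% interval 0.13 to 0.30; adjusted p = 0.000139).

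Col4a5, on the X chromosome (140258381 to 140472230), encodes the α5 chain, which forms trimers with α6 in smooth muscle and skin basement membranes. It was at 31.57, 31.66 and 31.47 FPKM in UVA libraries and 33.87, 36.45 and 36.15 FPKM in control libraries. All UVA libraries lay below the control libraries, and the log2 fold change was -0.15 ± 0.04 (adjusted p = 0.00563). Its partner Col4a6, named for that pairing after its values were seen, averaged 11.0 ± 0.287 FPKM in UVA and 12.4 ± 0.745 FPKM in control cells (SD, n = 3; log2 fold change -0.16 ± 0.05, adjusted p = 0.0216). Of the remaining chains, also named after their values were seen, Col4a4 did not pass the test and Col4a3 was not tested.

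Among the laminins, the gamma chain gene fell, and the beta chain gene Lamb1 did not pass the test. Lamc1 (chromosome 1, 153094668 to 153208532) had 35.30, 32.98 and 35.15 FPKM in UVA libraries and 41.86, 41.95 and 42.25 FPKM in control libraries. The control libraries lay within 1 FPKM of each other and above all UVA libraries (log2 fold change -0.27 ± 0.04, 95% interval -0.35 to -0.19, adjusted p = 3.41e-06).

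Lamb1 (chromosome 12, 31315233 to 31379643) had 48.38, 50.46 and 50.56 FPKM in UVA libraries and 47.80, 47.61 and 48.80 FPKM in control libraries. The groups overlapped in the deposited FPKM, and the log2 fold change of 0.07 ± 0.04 did not pass (95% interval -0.01 to 0.14; adjusted p = 0.177). Lamb2, the other beta chain gene expressed in these cells, fell (log2 fold change -0.17 ± 0.06; adjusted p = 0.0245) and was named after its values were seen.

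Lama4 (chromosome 10, 38841511 to 38986184) had the lowest log2 fold change of the 9 genes by edgeR, from the counts given above. Its FPKM was 0.67, 0.53 and 0.67 in UVA libraries and 0.94, 1.06 and 0.99 in control libraries, without overlap. The log2 fold change was -0.65 ± 0.13 (95% interval -0.92 to -0.38; adjusted p = 0.000315). By limma on log2(FPKM + 1), a scale that understates changes of low genes, it was -0.30, smaller in size than that of Hspg2 at -0.50. Lama5 (chromosome 2, 179818166 to 179867652) had 0.15, 0.16 and 0.20 FPKM in UVA libraries and 0.21, 0.20 and 0.28 FPKM in control libraries, which meet at 0.20 as deposited. Its log2 fold change was -0.43 ± 0.25 with a wide interval, -0.94 to 0.08, and did not pass (adjusted p = 0.208).

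Both linkers fell. Nid1 had 145.81, 134.89 and 138.06 FPKM in UVA libraries and 173.79, 178.89 and 172.89 FPKM in control libraries. Every UVA library was below the control libraries, and the log2 fold change was -0.31 ± 0.04 (95% interval -0.39 to -0.24; adjusted p = 1.27e-07).

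Hspg2, which encodes perlecan, had 40.98, 37.44 and 38.34 FPKM in UVA libraries and 53.86, 56.79 and 55.35 FPKM in control libraries. It fell furthest of the abundant genes, at -0.49 ± 0.05 (95% interval -0.59 to -0.40; adjusted p = 1.51e-09). In the order of levels it stood next after Nid1 in control cells and after Nid1, Col4a1, Col4a2 and Lamb1 in UVA cells, where the libraries of neighbours in the order did not overlap from Nid1 down to Col4a5.

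**Figure D2:**
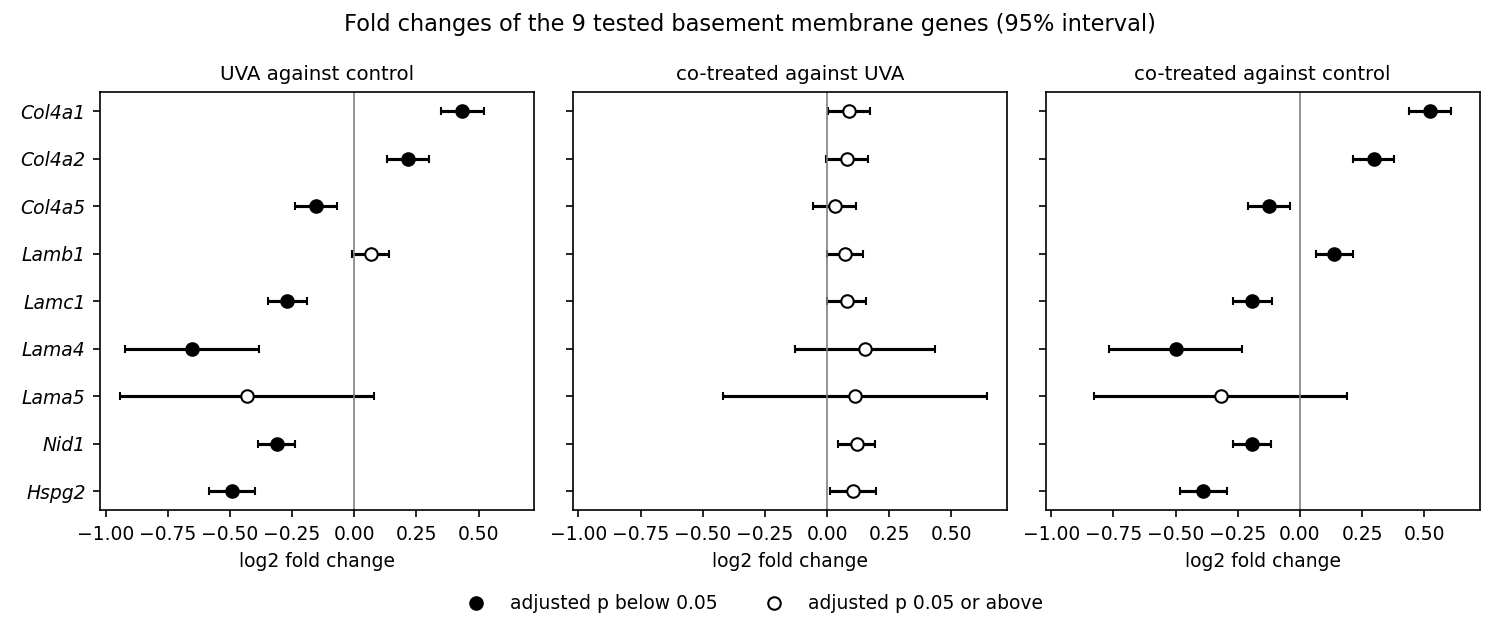
Log2 fold changes (points) with 95% intervals (bars) of the 9 tested genes in each comparison; filled points have an adjusted p below 0.05, and co-treated means UVA with alpha-arbutin. Col4a1 (0.44) and Hspg2 (-0.49) stand on opposite sides of 0 in UVA against control cells, and no point is filled in co-treated against UVA cells.

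Ratios between chains were compared next; with 3 against 3 libraries no exact p can fall below 0.1, so none could pass at 0.05. The FPKM ratio of Col4a1 to Col4a2 was 1.29, 1.21 and 1.27 in UVA libraries and 1.06, 1.07 and 1.10 in control libraries. The ratio of Lamb1 to Lamc1 was 1.37, 1.53 and 1.44 in UVA libraries and 1.14, 1.13 and 1.16 in control libraries. For both ratios every UVA library was above every control library. The ratio of Lama4 to Lamc1 was lower, at 1.80% ± 0.174 in UVA and 2.37% ± 0.147 in control libraries (SD, n = 3), and the groups did not overlap. For each of these 3 ratios the exact permutation test gave p = 0.1, the smallest that 3 against 3 allows, and 0.16 after Benjamini-Hochberg adjustment over 24 tests of ratios and sums. The ratio of Lama5 to Lamc1 overlapped between the groups (exact p = 0.5; adjusted 0.706). A ratio of Nid1 to Nid2 could not be formed with Nid2 at 0.

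Col4a1 was also set against a fibrillar collagen. Col1a1, the main chain of collagen I, averaged 44.4 ± 5.69 FPKM in UVA and 146 ± 2.32 FPKM in control cells (SD, n = 3). The FPKM ratio of Col4a1 to Col1a1, added after the data were seen, was 1.53, 1.45 and 2.00 in UVA libraries and 0.390, 0.345 and 0.377 in control libraries. Col4a1 transcripts thus outnumbered those of Col1a1 per exonic length in every UVA library and in no control library (exact permutation p = 0.1, the smallest possible; adjusted 0.16).

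**Figure D3:**
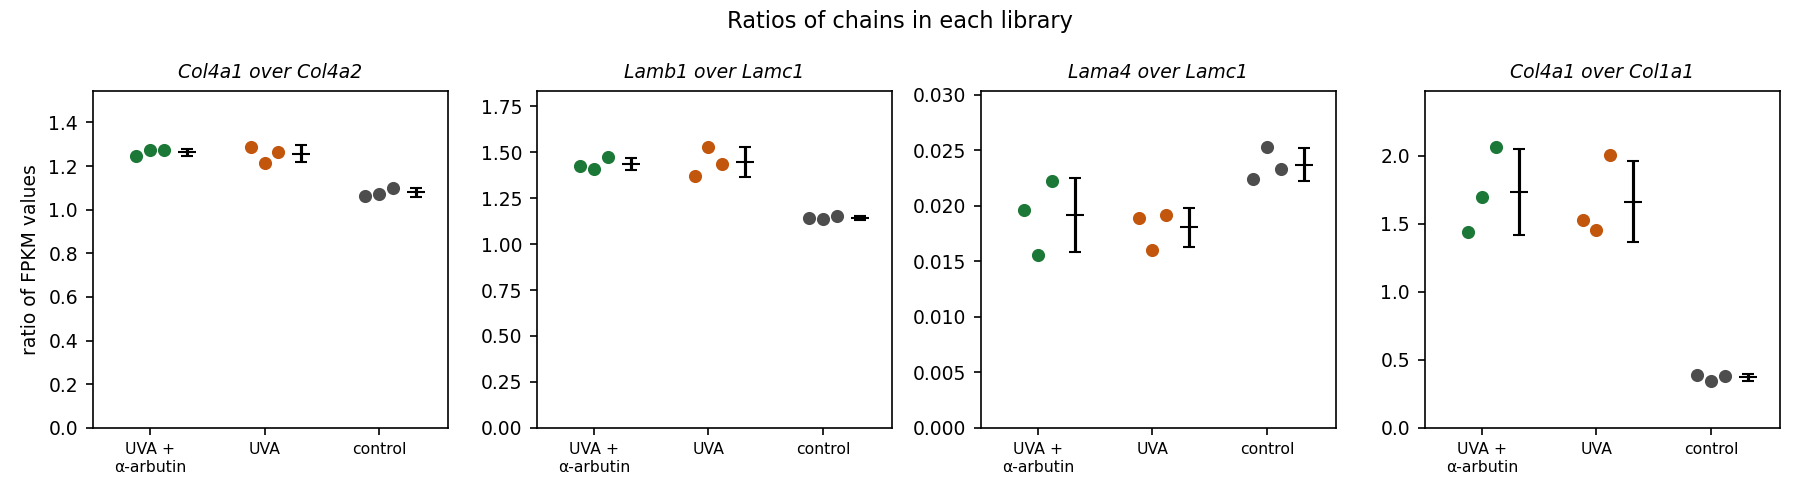
FPKM ratios of chain pairs in each library (points), with mean and SD (n = 3), on linear axes from 0. Col4a1 over Col4a2, Lamb1 over Lamc1 and Col4a1 over Col1a1 are higher in both irradiated groups than in control, and Lama4 over Lamc1 is lower.

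Across the whole tested table, the genes whose library-by-library pattern lay nearest to that of Col4a1 were Smcr8, Neo1 and Rnf145. Likeness was the root mean square difference of centred log2 CPM over the 9 libraries, and it was 0.0385, 0.0411 and 0.0416 for these 3. Neo1 encodes neogenin, a receptor for netrins and repulsive guidance molecules, and Rnf145 a ubiquitin ligase of the endoplasmic reticulum. In UVA against control cells the log2 fold change was 0.39 for Smcr8, 0.51 for Neo1 and 0.48 for Rnf145. Values near that of Col4a1 follow from the choice by likeness over the same libraries. Nearest to Lamc1 were Usp22, a deubiquitinase gene, Pcbp3, an RNA-binding protein gene, and Pdcd4, an inhibitor of translation, with differences of 0.0259, 0.0281 and 0.0303.

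The next fold changes, co-treated against UVA, use the same 3 UVA libraries as those above. In co-treated against UVA cells, no basement membrane gene passed the test. By edgeR 0 of the 9 tested genes were called, 3 of them had an unadjusted p below 0.05, and DESeq2 and limma also called 0; over all tested genes 0.0353% were called, 0.0283% higher and 0.00707% lower. The log2 fold change was nevertheless positive for 9 of 9 genes, between 0.03 and 0.15 with a median of 0.09, where 7079 of 14151 tested genes were positive and the median of all was 0. Without co-treated replicate 2 the value of Lama5 was -0.025. The 9 genes do not stand for basement membrane genes in general. Of 17 other tested components, described below, 6 were positive in this comparison, with a median of -0.03. Among those 17, 0 were apart and higher in CPM and 1 was apart and lower.

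Nid1 had the smallest p of the 9. It was at 155.69, 154.47 and 146.94 FPKM in co-treated libraries, against 145.81, 134.89 and 138.06 FPKM in UVA libraries. The groups did not overlap, and the log2 fold change was 0.12 ± 0.04 (95% interval 0.04 to 0.19; unadjusted p = 0.00310, adjusted p = 0.584 by edgeR).

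Col4a1 had 75.22, 78.32 and 79.23 FPKM in co-treated libraries, against 72.12, 69.83 and 75.77 FPKM in UVA libraries, and the groups overlapped (log2 fold change 0.09 ± 0.04, 95% interval 0.01 to 0.17, edgeR adjusted p = 0.715). Hspg2 had 45.26, 42.37 and 38.51 FPKM in co-treated libraries, the widest spread relative to the mean among the abundant genes, and 40.98, 37.44 and 38.34 FPKM in UVA libraries. These groups overlapped as well (0.10 ± 0.05, 95% interval 0.01 to 0.20, edgeR adjusted p = 0.701). The Hspg2 value was 0.049 without co-treated replicate 1 and 0.162 without co-treated replicate 3.

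Col4a2 was at 60.48, 61.55 and 62.20 FPKM in co-treated libraries, Lamb1 at 52.15, 52.60 and 53.08, and Lamc1 at 36.52, 37.27 and 36.02. Each of these genes lay above all 3 UVA libraries given above, by a log2 fold change of 0.08 ± 0.04, 0.07 ± 0.04 and 0.08 ± 0.04, with edgeR adjusted p of 0.741, 0.741 and 0.740. With Nid1, 4 of the 9 genes were thus apart and higher, against 5.45% of all tested genes, and 0 were apart and lower, against 5.31% (10.8% in both directions). These genes share the same libraries, so the count is a description and not a test. Upper ends of the 95% intervals were at most 0.20 for the 7 abundant genes. They reached 0.44 for Lama4 and 0.64 for Lama5, whose low counts leave room for larger differences.

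Chain ratios did not separate co-treated from UVA libraries. Col4a1 over Col4a2 averaged 1.26 ± 0.0170 in co-treated and 1.26 ± 0.0389 in UVA libraries, with an exact permutation p of 0.8 (SD, n = 3). Lamb1 over Lamc1 averaged 1.44 ± 0.0324 in co-treated and 1.45 ± 0.0801 in UVA libraries, with an exact permutation p of 0.9 (SD, n = 3).

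Against control cells, co-treated cells showed 3 basement membrane genes higher and 5 lower of 9 tested, where 13.0% of all tested genes were higher and 12.9% lower, 25.8% in all. The libraries were apart in 3 genes that were higher and 5 that were lower, where 39.7% of all tested genes were apart, 19.8% higher and 19.9% lower. The control libraries are those of the comparison of UVA with control, so the values are given side by side only. The log2 fold change in co-treated and in UVA cells, each against control, was 0.52 and 0.44 for Col4a1, 0.30 and 0.22 for Col4a2, -0.50 and -0.65 for Lama4, -0.19 and -0.27 for Lamc1, -0.19 and -0.31 for Nid1, and -0.39 and -0.49 for Hspg2. Each of these had an edgeR adjusted p below 0.05 in both comparisons. Lamb1 passed in co-treated cells (0.14 ± 0.04, 95% interval 0.06 to 0.21, edgeR adjusted p = 0.00453). The co-treated libraries, at 52.15 to 53.08 FPKM, were all above the control libraries, at 47.61 to 48.80 FPKM. The difference between its values in the co-treated and UVA cells is the one given above, which did not pass.

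Col4a5 was also lower in co-treated cells, at 33.14, 31.22 and 32.85 FPKM, against 33.87, 36.45 and 36.15 FPKM in control cells (log2 fold change -0.12 ± 0.04, edgeR adjusted p = 0.0288). That call was lost when single libraries were left out: the adjusted p was 0.131 without control replicate 2, 0.134 without control replicate 3 and 0.148 without co-treated replicate 2. Lama5 did not pass (-0.32 ± 0.25, 95% interval -0.83 to 0.19, edgeR adjusted p = 0.383).

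Other genes of basement membranes were read from lists chosen with earlier results of these data known, and counted in UVA against control cells. Of 30 other components 17 had enough counts to test, 3 rose and 8 fell, against 14.7% higher and 14.6% lower over all tested genes, with a median log2 fold change of -0.17. Sparc, a collagen-binding glycoprotein, was at -0.48 ± 0.04, Fbln2, a fibulin that binds nidogen and laminin, at -0.33 ± 0.04, and Pxdn, the peroxidase that crosslinks collagen IV, at -0.17 ± 0.04. Col17a1, a hemidesmosome collagen of epithelial cells, rose to 1.50 ± 0.468 FPKM in UVA cells, against 0.393 ± 0.0569 FPKM in control cells (SD, n = 3; log2 fold change 1.94 ± 0.20, edgeR adjusted p = 1.03e-08). Tinagl1, a basement membrane glycoprotein, rose to 24.0 ± 3.70 FPKM, against 13.8 ± 0.585 FPKM in control cells (SD, n = 3; 0.81 ± 0.07, edgeR adjusted p = 1.45e-09).

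Of 13 receptors tested 2 rose, about the 14.7% of all tested genes, and 5 fell, against 14.6% of all, with a median of -0.02. The laminin-binding integrin genes Itga6 and Itga3 rose, at 0.29 ± 0.04 and 0.17 ± 0.04. Their beta partner Itgb1, named after its values were seen, was at -0.02 ± 0.03 and did not pass. The collagen receptor gene Ddr2 fell at -0.58 ± 0.05, as did the dystroglycan gene Dag1 at -0.23 ± 0.04 and the syndecan gene Sdc1 at -0.29 ± 0.05.

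Of 21 tested genes for assembly, export and modification 15 fell and 0 rose, by edgeR at an adjusted p below 0.05, against 14.6% lower and 14.7% higher over all tested genes. Their median was -0.24. At an unadjusted p below 0.05 the number in either direction was 18. They included P4ha1, a prolyl hydroxylase subunit, at -0.71 ± 0.05, the collagen chaperone gene Serpinh1 at -0.46 ± 0.04, Qsox1, an oxidase needed to build laminin into fibroblast matrix, at -0.50 ± 0.06, P4hb at -0.25 ± 0.03 and the COPII coat gene Sec23a at -0.38 ± 0.06. Of 13 tested proteases and inhibitors 5 rose and 6 fell, against the same 14.7% and 14.6% of all tested genes. The gelatinase gene Mmp2, whose protein cuts collagen IV, was at -0.44 ± 0.04, Adamts1 at -0.53 ± 0.05, Adamts5 at -1.08 ± 0.07 and the inhibitor gene Timp3 at -0.33 ± 0.05. The inhibitor genes Timp1 and Timp2, named after their values were seen, rose, at 0.45 ± 0.08 and 0.11 ± 0.04. The lysosomal protease gene Ctsl rose, at 0.34 ± 0.04. For comparison, 6 of 6 tested fibrillar collagen genes fell, against 14.6% of all tested genes, with a median of -1.33 and values from -1.72 to -0.89, whereas the lowest value among the 9 basement membrane genes was -0.65, that of Lama4. Across these 5 lists, 0 genes were called by edgeR in co-treated against UVA cells. At an unadjusted p below 0.05 the lists held 4, 1, 1, 1 and 0 genes in the order described, and DESeq2 and limma also called 0. Positive log2 fold changes in that comparison numbered 6 of 17, 4 of 13, 9 of 21, 4 of 13 and 5 of 6. The medians, in the same order, were -0.03, -0.015, -0.00084, -0.04 and 0.04.

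**Figure D4:**
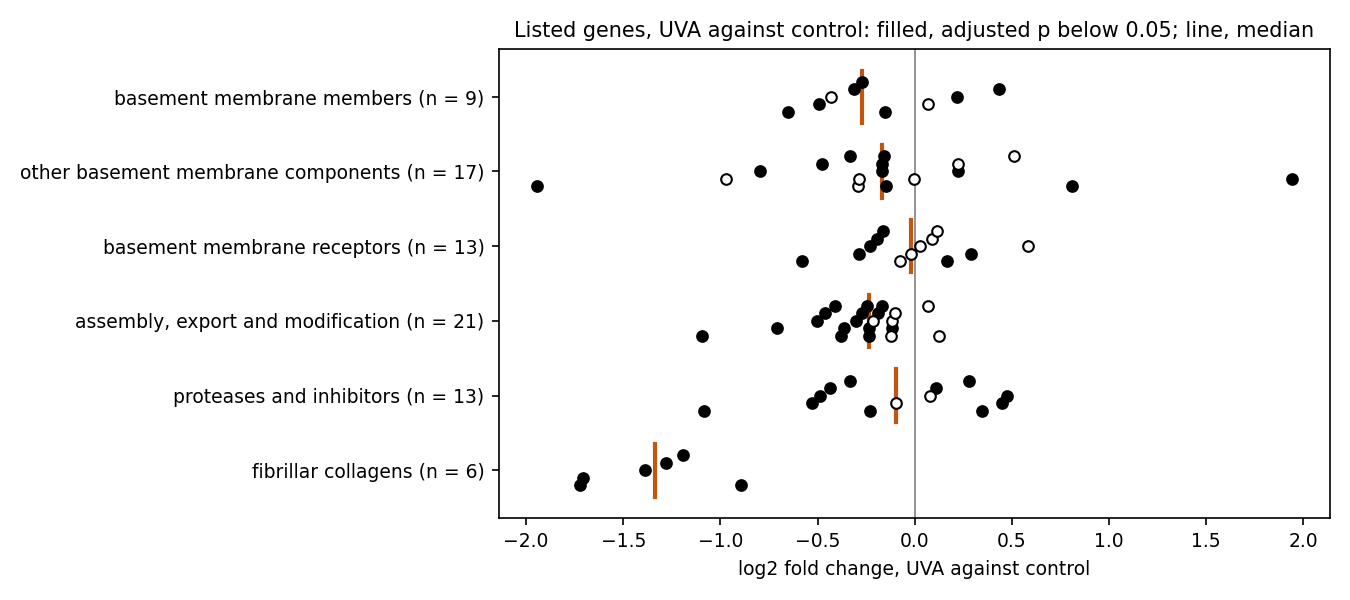
Log2 fold changes in UVA against control cells of the tested genes of each list (points; filled where the adjusted p is below 0.05), with the median of each list as a line. The 9 basement membrane genes lie between -0.65 and 0.44, and the 6 fibrillar collagens between -1.72 and -0.89.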

How the data were processed

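RNA sequencing of 9 NIH/3T3 libraries was read from 1 deposited table of 56691 genes, which holds whole-number counts per gene and FPKM, per the file headers. Tools listed in the submitters' processing notes are HTSeq 0.6.1, HISAT2 2.2.1, bcl2fastq 2.20.0.422 and cutadapt 1.9.1, with the build mm39. For the annotation release and the strand setting: not given in the sources used here. The deposited FPKM equalled the count scaled to exonic kilobases and to the library's total, within 0.01, for 510219 of 510219 values. Control columns carry a prefix that no title holds; they were mapped by elimination, as the remaining prefixes match the irradiated groups.

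Counts were fitted with edgeR 4.0.16 in R 4.3.3 (filterByExpr, TMM, quasi-likelihood F-test, group as the only term, all 9 libraries sharing 1 estimate of the spread). This left 14151 genes, over which p-values were adjusted by Benjamini-Hochberg and called below 0.05. Intervals on fold changes are at 95%. Ratios of FPKM were compared on the log2 scale by two-sided exact permutation tests. The code was tested on simulated data. Alternatives were DESeq2 1.42.0, limma 3.58.1 on log2(FPKM + 1) and log2(FPKM + 0.1), DESeq2's size factors, no filter, only the groups compared, a replicate block and leaving out each library.

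The 10 genes and all lists were chosen with earlier results of these data known. Besides the 10, the text names up to 5 genes per list with the smallest p in UVA against control, Col1a1, and the 3 genes nearest in pattern to Col4a1 and to Lamc1; exceptions are marked. Promoters are on GRCm38.p6, and their coordinates are not comparable with the table's. Protein sequences were not used here.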

Additional observations from a re-analysis of the deposited data

How the results depend on the processing

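In UVA against control cells 2 basement membrane genes were higher and 5 lower under all 13 alternatives, and in co-treated against UVA cells 0 were called under all 13. In co-treated against control cells 3 were higher under all 13, and 4 to 5 were lower. The only fold change to reverse was that of Lama5 in co-treated against UVA cells, at -0.025 without co-treated replicate 2 and at most 0.24 with another library left out. Lama4 in co-treated against control cells lost its call under limma on log2(FPKM + 0.1), at -0.46 with an adjusted p of 0.0652 (range over its alternatives 0.00136 to 0.0652), and was -0.23 on log2(FPKM + 1). Calls over all genes in co-treated against UVA cells were unstable. They numbered 4 higher and 1 lower by edgeR, 10 and 2 by DESeq2, 20 and 9 without the filter, 0 and 0 by limma, and 1 to 14 and 0 to 8 when leaving out each library. Deviations of same-numbered libraries correlated at -0.00871 to 0.0756 over 9 pairs, so the samples are taken to share only a number. As a hint from the data, not the design, 6 of 6 libraries correlated best with their own number in co-treated against UVA, and 2 of 6 in each comparison with control. With the replicate block the calls in co-treated against UVA cells were 16 higher and 3 lower, and the counts of basement membrane genes did not change. With control replicate 3 left out, 6 instead of 10 other listed genes were higher in co-treated than in control cells. Depth limits Lama5 and Nid2, whose counts were at most 66 and 2 per library.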

Other observations

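The summed FPKM of the 10 basement membrane genes was 459.35, 458.59 and 449.8 in co-treated libraries, 430.96, 415.52 and 430.08 in UVA libraries, and 461.27, 461.85 and 462.52 in control libraries. Control libraries lay close together, co-treated libraries just below them and UVA libraries lowest, without overlap between groups. The log2 difference was -0.12 in UVA against control, 0.10 in co-treated against UVA and -0.02 in co-treated against control cells, each with an exact permutation p of 0.1, the smallest that 3 against 3 allows, and 0.16 after adjustment over 24 tests. The sum adds genes that moved in opposite directions against control, so a sum near that of control does not mean that single genes were near control. Nid1 made up 33.4% of the sum in co-treated, 32.8% in UVA and 37.9% in control libraries. Col4a1 made up 17.0% in co-treated, 17.1% in UVA and 11.8% in control libraries.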
